A study of Mus musculus with 6 samples.

Results

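Mouse intestinal organoids given all-trans retinoic acid (atRA) are set here against organoids given its vehicle, dimethyl sulfoxide (DMSO), at day 4 of culture. The comparison took every barcode of the atRA library (5365 cells) and every barcode of the day 4 vehicle library (4787 cells), 10152 of the 29565 cells in the 6 libraries of the study. Organoids are small spheres of epithelium grown in a gel, in which crypt cells divide and give rise to the cell types of the gut lining. The crypts came from wild-type C57BL/6 mice aged 8 weeks. The vehicle organoids received DMSO and the treated ones 10 µM atRA (the labels write the unit as "μm", read here as micromolar), once at day 0 and again at day 3. Both were kept until day 3 with 20% Wnt3a-conditioned medium, 3 µM CHIR99021, an inhibitor of GSK3 that keeps Wnt signalling on, and 10 µM Y-27632, a kinase inhibitor that helps single cells survive. At day 3 both were moved to medium with EGF, Noggin and R-spondin. Cells of both were sorted to remove debris and dead cells and made into 3′ single-cell RNA libraries. The study describes organoids from 2 mice cultured in duplicate, but the deposited matrices do not tell mice or duplicates apart, so each side is 1 library. There was therefore no replicate check and no test, and genes are called higher or lower by size alone. The other 4 libraries, from mice of the same strain, genotype and age, are used only to place levels. They are 1 library at day 4 with 5 µM of an RXR antagonist (RXRi), called the RXR inhibitor here, 1 at day 4 in medium without vitamin A, and 2 of vehicle at day 1.

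Retinoic acid is the hormone form of vitamin A. It binds the retinoic acid receptors (RARs), which sit on DNA with a retinoid X receptor (RXR), and the same RXRs pair with PPARs, which sense fatty acids, with FXR, which senses bile acids, and with LXR, PXR and the vitamin D receptor. In the gut epithelium, vitamin A arrives as retinol or carotene, is bound by the retinol-binding protein Rbp2, and is oxidised to the acid by dehydrogenases or esterified for export in chylomicrons. Cells break retinoic acid down with enzymes of the Cyp26 family. PPAR-alpha is best known for raising fatty acid oxidation and ketone body synthesis, and absorptive enterocytes are among its sites of action.

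The atRA library held 64055924 unique molecular identifiers (UMIs, counted molecules of RNA) and the vehicle library 52627278, with medians of 11782 and 10825 UMIs per cell. Levels are UMIs summed over all cells of a library and given in CPM, the usual count unit that puts libraries at equal totals. Intervals of levels and folds are exact at 95% (Poisson) and cover only the counting error; 3 UMIs correspond to 0.0468 CPM with atRA and 0.0570 CPM with vehicle. The median share of mitochondrial UMIs was 4.40% with atRA and 3.58% with vehicle. The libraries shared 12 cell barcodes, against 2 to 17 for all pairs of the 6 libraries. Summed markers of cells other than epithelium were at or near 0: markers of immune cells came to 3.23 and 5.17 CPM, of fibroblasts and smooth muscle to 3.01 and 9.84 CPM, and of endothelium to 1.56 and 1.44 CPM, with atRA and vehicle in that order. Both libraries were led by genes of intestinal epithelium such as Fabp1 and Rbp2.

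The scaling matters here because a few genes took a large share of the atRA library. The 10 most abundant genes took 17.2% of all UMIs with atRA and 9.95% with vehicle, led in both by Fabp1, which binds fatty acids in the enterocyte cytosol, at 5.04% and 2.14% of UMIs. At equal totals, the median log2 ratio of atRA to vehicle over the 7973 genes with at least 10 CPM in either library was -0.27 (a pseudocount of 5 CPM was added to both levels). At this scaling 222 genes (2.78%) were higher with atRA by 2-fold or more and 424 (5.32%) lower. With ratios centred on the median gene, 359 (4.50%) were higher and 149 (1.87%) lower. TMM factors gave 435 higher (5.52%) and 111 lower (1.41%) of 7877 genes, and DESeq2 size factors gave 424 (5.39%) and 122 (1.55%) of 7872. The split between higher and lower genes thus turned with the scaling, and each ratio below, at equal totals unless stated, can for abundant genes be moved to the TMM scale by adding about 0.41. As a yardstick for libraries of like cells, the second day 1 vehicle library had 67 genes (0.815%) higher by 2-fold or more than the first and 0 (0.00%) lower, of 8218. The day 4 library from medium without vitamin A had 18 genes (0.220%) higher and 19 (0.232%) lower than the day 4 vehicle, of 8184. In summed cells, fewer cells of a type and less RNA per cell cannot be told apart. Members of gene lists are called at 1.5-fold. Over all 7973 genes 6.00% were higher by that much and 21.1% lower at equal totals, and 11.1% and 8.73% with centred ratios. A gene that reached 10 CPM in 1 library only could lie only on that library's side, which bears on the counts of members below.

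Of the 222 higher genes, 43 were at least 4-fold and 13 at least 8-fold apart; of the 424 lower genes, 18 and 4 were. The atRA library had the highest level of all 6 libraries for 210 of the 222 (94.6%) and the lowest for 283 of the 424 (66.7%). These genes were chosen for their distance from the vehicle, and the vitamin A-free library lay near the vehicle. Part of this order is thus built in, and the shares over all genes were not taken. The 15 highest genes by log2 ratio included Fabp6, Cyp4a10, Akr1b7, Gda, Pdk4 and Acaa1b, of which Cyp4a10, Pdk4 and Acaa1b act in the use of fatty acids as fuel. The 15 lowest were led by Ctrb1, Sprr2a3, Cck, Nupr1 and AA467197. Ctrb1 (chr8:111686519-111691010, minus strand; this and the gene positions below are GENCODE M21 on GRCm38), which encodes the digestive protease chymotrypsinogen B, stood at 9.21 CPM with atRA and 696 CPM with vehicle, 75.6-fold lower (interval 69.7 to 82.1). Its level in the other libraries ran from 25.4 CPM at day 1 to 971 CPM in vitamin A-free medium, so atRA gave the lowest of the 6.

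**Figure D1:**
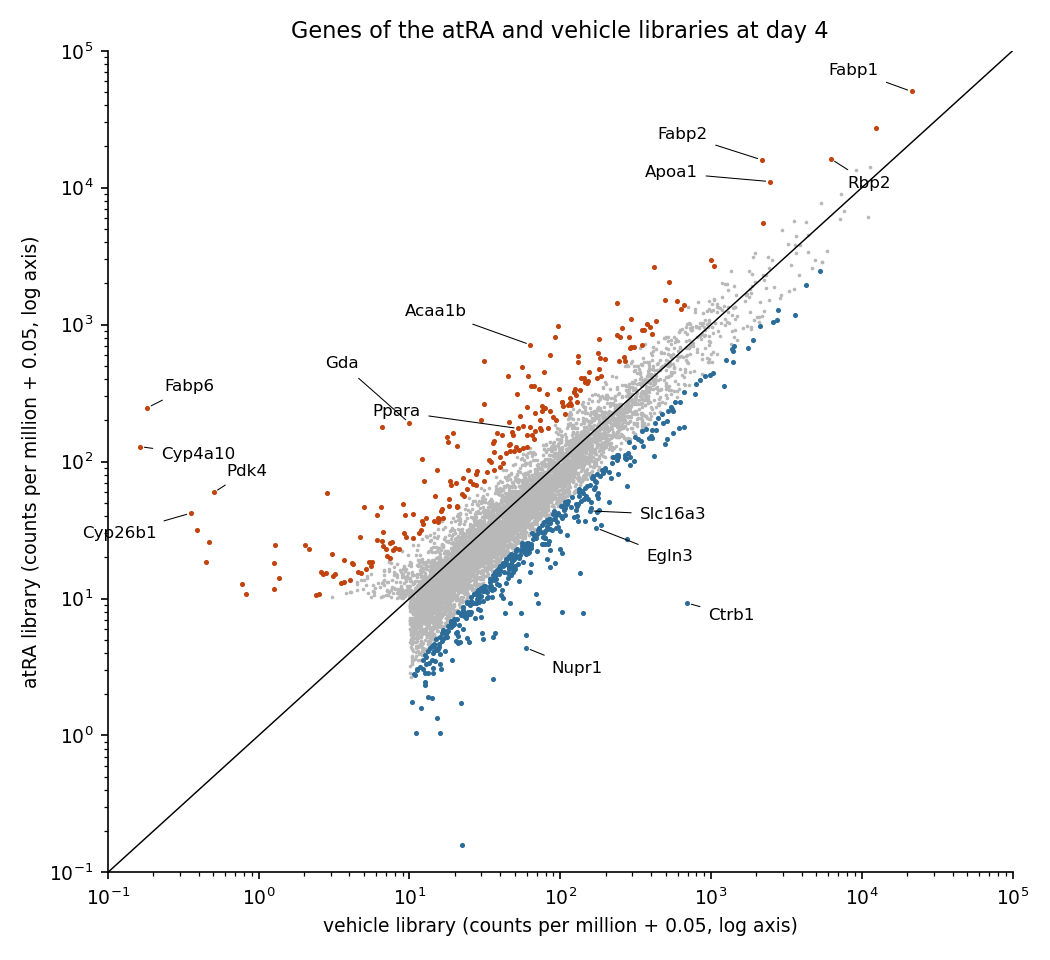
Levels of 7973 genes in the vehicle library (x axis) and the atRA library (y axis), in CPM plus 0.05, both on log axes; each point is a gene, red at least 2-fold higher with atRA and blue at least 2-fold lower (with 5 CPM added), and the line marks equal levels. Fabp6, Cyp4a10, Pdk4 and Cyp26b1 lie under 1 CPM on the vehicle axis, and Fabp1 tops both axes.

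Of the genes that break retinoic acid down or respond to it, few stood apart. Cyp26b1 (chr6:84571414-84593908, minus strand), an enzyme that breaks retinoic acid down, was at 41.9 CPM with atRA and 0.304 CPM with vehicle, 138-fold higher (84.8 to 242). In the other 4 libraries it ran from 0 to 0.142 CPM. Its relatives Cyp26a1 and Cyp26c1 had 0 UMIs in both libraries, and Rarb, a receptor gene known as a retinoic acid target in many cells, had 0 UMIs with atRA and 1 with vehicle. Of the 15 listed genes of retinoic acid breakdown and feedback, 5 reached 10 CPM, 1 of them at least 1.5-fold higher and 1 lower, against 6.00% higher and 21.1% lower over all genes. Dhrs3, which returns retinal to retinol, was at 96.5 and 79.6 CPM, and Isx, a homeobox gene that represses vitamin A uptake, at 207 and 172 CPM. Isx was near its vehicle level with atRA, but at 0.0577 CPM in vitamin A-free medium. Cdx1, a homeobox gene of the intestine, was 1.82-fold lower (91.7 and 167 CPM), and its log2 ratio of -0.83 became -0.44 with TMM factors.

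The receptors were sparse and near level. Rara stood at 14.2 CPM with atRA and 18.5 CPM with vehicle, Rxra at 18.3 and 19.7 CPM, and Rxrb at 21.0 and 34.1 CPM, a log2 ratio of -0.59 that became -0.25 with TMM factors. Rarg, at 104 and 133 UMIs, and Rarb and Rxrg, at no more than 1 UMI, did not reach 10 CPM. Of 14 genes for receptors that pair with RXR or act beside it, 13 were measured. Ppara, the gene for PPAR-alpha, was 3.32-fold higher (174.5 and 52.6 CPM), whereas Ppard and Pparg were 2.41-fold and 2.07-fold lower. The genes for LXR, FXR, PXR, CAR and the vitamin D receptor had log2 ratios between -0.01 and 0.75.

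Genes of retinol handling were higher in 7 of 15 measured members (22 listed) and lower in 1, with a median log2 ratio of 0.55. Over all genes 6.00% were higher and 21.1% lower by the same 1.5-fold. Rbp2, the retinol-binding protein of enterocytes, was at 16203 CPM with atRA and 6250 CPM with vehicle, 2.59-fold higher (2.58 to 2.60). The 4 other libraries had 1103 to 4140 CPM. Retsat, the enzyme that saturates a bond of retinol, was at 420 and 61.1 CPM, 6.87-fold higher, and Aldh1a1, which makes retinoic acid from retinal, 2.87-fold higher (818 and 285 CPM). The exception was Ttr, the plasma carrier of retinol-binding protein, 4.68-fold lower at 5.10 and 23.9 CPM.

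Genes of fatty acid oxidation and targets of PPAR-alpha were mostly higher. Of 16 further targets of PPAR-alpha on a list, 11 were measured and all 11 were at least 1.5-fold higher, with log2 ratios from 1.02 to 4.71 and a median of 2.14, against a median of -0.27 over all genes. Over all genes 6.00% were higher by that much. Some of the 11, Cyp4a10 and Pdk4 among them, reached 10 CPM only with atRA and so could only be higher. Summed over all 16 listed genes, levels were 5183 CPM with atRA and 1499 CPM with vehicle. Peroxisomal oxidation had 12 of 14 members higher and 0 lower (median 1.15), and mitochondrial oxidation 10 of 18 higher and 0 lower (median 0.60). Cyp4a10 (chr4:115518264-115533649, plus strand), which hydroxylates fatty acids at their end, was at 128.5 CPM with atRA and 0.114 CPM with vehicle, from 8230 and 6 UMIs. It is near in sequence to Cyp4a31 and Cyp4a32, which had 17 and 1 UMIs with atRA and 0 with vehicle, and reads may be split among such copies. Pdk4 (chr6:5483351-5496309, minus strand), a kinase that shuts pyruvate out of the mitochondrial fuel cycle, was at 59.6 and 0.456 CPM, 131-fold higher (87.7 to 204).

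Further along the route, Cpt1a, the gate for fatty acids into mitochondria, was 2.31-fold higher (91.2 and 39.5 CPM), and Slc25a20, the carnitine carrier, 3.06-fold (103 and 33.8 CPM). Acadl, the dehydrogenase for long chains, was 3.67-fold higher at 938 and 255 CPM. In peroxisomes, Acot4, a thioesterase, was 3.80-fold higher (137 and 35.9 CPM), and Acaa1b, a thiolase with a near copy in Acaa1a between which reads may be split, 11.3-fold (713 and 63.3 CPM). Enzymes for medium and short chains stood closer together: Acadm stood at 220 and 208 CPM and Acads at 160 and 138 CPM. The transcription factor Creb3l3, which acts with PPAR-alpha in fasting liver, was 2.64-fold higher (919 and 349 CPM).

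On the list of ketone body genes, Bdh1 was at 139 and 138 CPM, and Oxct1 and Acat1 were 2.08-fold and 1.59-fold lower.

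Fat uptake and chylomicron assembly were higher throughout most of the route, in 14 of 17 measured members (18 listed), with 0 lower and a median of 1.25. The share higher over all genes was 6.00%. Fabp1 reached 50437 CPM with atRA against 21359 CPM with vehicle, 2.36-fold higher, and Fabp2, the intestinal fatty acid-binding protein, 15973 against 2167 CPM, 7.37-fold higher (7.33 to 7.42). In vitamin A-free medium Fabp2 was at 2206 CPM, near the vehicle level. Cd36, a fatty acid transporter, was 9.43-fold higher, from a low 4.92 CPM to 46.4 CPM. The chylomicron proteins Apoa1, at 11088 and 2455 CPM, and Apoa4 (log2 ratio 1.56), and Mttp, which loads lipid on them (1.31), were on the same side. Apoa1 with atRA was the highest of the 6 libraries, and it was at 0.0203 CPM with the RXR inhibitor.

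Since PPARs, RXR and HNF4 bind pairs of a hexamer spaced by 1 base (DR1), the RefSeq promoter windows (GRCm38.p6, 250 bases before to 50 after a start) were searched on both strands for the hexamer AGGTCA given 2 times in the same direction with any base between, with at most 2 of the 12 fixed letters mismatched. A window was at hand for 167 of the 222 higher genes and 324 of the 424 lower ones. The DR1 motif lay in 19 of the 167 (11.4%) and in 7 of the 324 (2.16%), against 3.99% of the compared genes with a window and 4.40% of all 27025 genes. Other pairs of the hexamer were searched alike. A pair 2 bases apart lay in 5.39% of the higher and 3.40% of the lower genes, against 2.75% of the compared genes. For a pair 5 bases apart the shares were 6.59%, 1.85% and 2.46%, and for an inverted pair 1 base apart 2.99%, 0.309% and 1.08%. A larger share among the higher genes was thus not particular to DR1. The 10 genes of the retinol and fat lists above that were at least 2-fold higher and held DR1 are shown, since they include the most abundant genes of the comparison. The 12 fixed letters count both hexamers. Each site is written 5′ to 3′ on the motif's strand, with letters that match the motif in capitals.
Fabp1: AGGcCAtAGGTCA
Rbp2: gaGTCAaAGGTCA
Cd36: AaGTCAgAGGcCA
Acot4: cGGcCAaAGGTCA
Slc25a20: AGGTgAaAGGTCg
Cat: AGGTCAgAGaaCA
Creb3l3: AGGggAgAGGTCA
Plin2: AGGTCAggGGTCc
Dhrs9: AGGTCAcAGGTtt
Bco2: AtGTCAaAGGTtA

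The site of Fabp1 had 1 mismatch and began 67 bases before the RefSeq start, and that of Rbp2 had 2 and began 58 before its RefSeq start. Both sites lay opposite to the gene. In GENCODE M21 Fabp1 begins earlier, at chr6:71199827, just after the site, and its printed stretch below ends there. Acot4 had its site 13 bases and Cd36 63 bases upstream; that of Slc25a20 lay in the first exon. The 10 genes had log2 ratios from 1.08 to 2.37. Of the 15 highest genes 13 had a window, and none of these 13 held the motif, Pdk4 included, which says only that these letters were not in those 300 bases. Cyp4a10 was not among the genes with a window. A match is a description of the sequence, not evidence of a site in use. The stretches upstream of Fabp1 (chr6:71199629-71199826, plus strand) and Rbp2 (chr9:98490287-98490536, plus strand) are printed up to the first base annotated as exon, with the site in capitals as it reads on the gene's strand.
Fabp1: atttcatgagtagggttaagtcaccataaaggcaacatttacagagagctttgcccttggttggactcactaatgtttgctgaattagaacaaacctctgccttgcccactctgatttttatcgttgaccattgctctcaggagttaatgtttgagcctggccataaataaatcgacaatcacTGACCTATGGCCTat
Rbp2: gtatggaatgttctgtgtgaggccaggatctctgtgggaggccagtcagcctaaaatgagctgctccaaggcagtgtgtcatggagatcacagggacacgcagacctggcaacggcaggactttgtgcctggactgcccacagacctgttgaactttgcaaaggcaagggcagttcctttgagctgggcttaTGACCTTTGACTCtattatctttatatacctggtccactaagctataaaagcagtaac

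Bile acid handling showed the highest single ratio of the comparison. Fabp6 (chr11:43596049-43601540, minus strand), the cytosolic bile acid-binding protein that marks ileum, was at 247 CPM with atRA and 0.133 CPM with vehicle, from 15834 and 7 UMIs, 1858-fold higher (902 to 4623). No other library exceeded 0.263 CPM. Other members of the list had smaller ratios: Slc51b, a subunit of the basolateral bile acid exporter, was 8.78-fold higher (491 and 55.9 CPM), and Nr0b2, the repressor SHP that FXR induces, 21.1-fold (58.9 and 2.79 CPM). In all, 6 of 8 measured members (11 listed) were higher and 0 lower, with a median of 2.11, against 6.00% of all genes higher. Some of these, Fabp6 and Nr0b2 among them, reached 10 CPM only with atRA and so could only be higher. Summed over all 11 listed genes, levels were 1869 CPM with atRA and 470 CPM with vehicle. Slc10a2, the ileal importer of bile acids, had 49 and 67 UMIs and stayed under the floor, and Fgf15, the ileal hormone gene, stood at 18.1 and 1.22 CPM.

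Genes of detoxification and digestion were also mostly higher. Over all genes 6.00% were at least 1.5-fold higher at equal totals and 11.1% with centred ratios. Of 21 measured xenobiotic genes 14 were higher and 1 lower (median 0.99), led by Cyp3a11, a drug-metabolising P450, at 600 and 85.7 CPM. Cyp3a11 had 0 UMIs with the RXR inhibitor. Brush-border enzymes were higher in 10 of 14 members and lower in 0 (median 0.85), among them the peptidases Mep1b (4.03-fold) and Mme (2.89-fold). Nutrient carriers were higher in 6 of 12, and in 11 of 12 with centred ratios, led by the proline carrier Slc6a20a (3.89-fold) and the peptide carrier Slc15a1 (4.75-fold). The lipogenic list was split. Scd1, the stearoyl desaturase, was 6.28-fold higher (2624 and 418 CPM) and Me1, which supplies NADPH, 5.83-fold (454 and 77.9 CPM), but Fasn and Acaca, which build the fatty acid chain, had log2 ratios of -0.17 and 0.02, and Acly, which feeds them, -1.11.

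**Figure D2:**
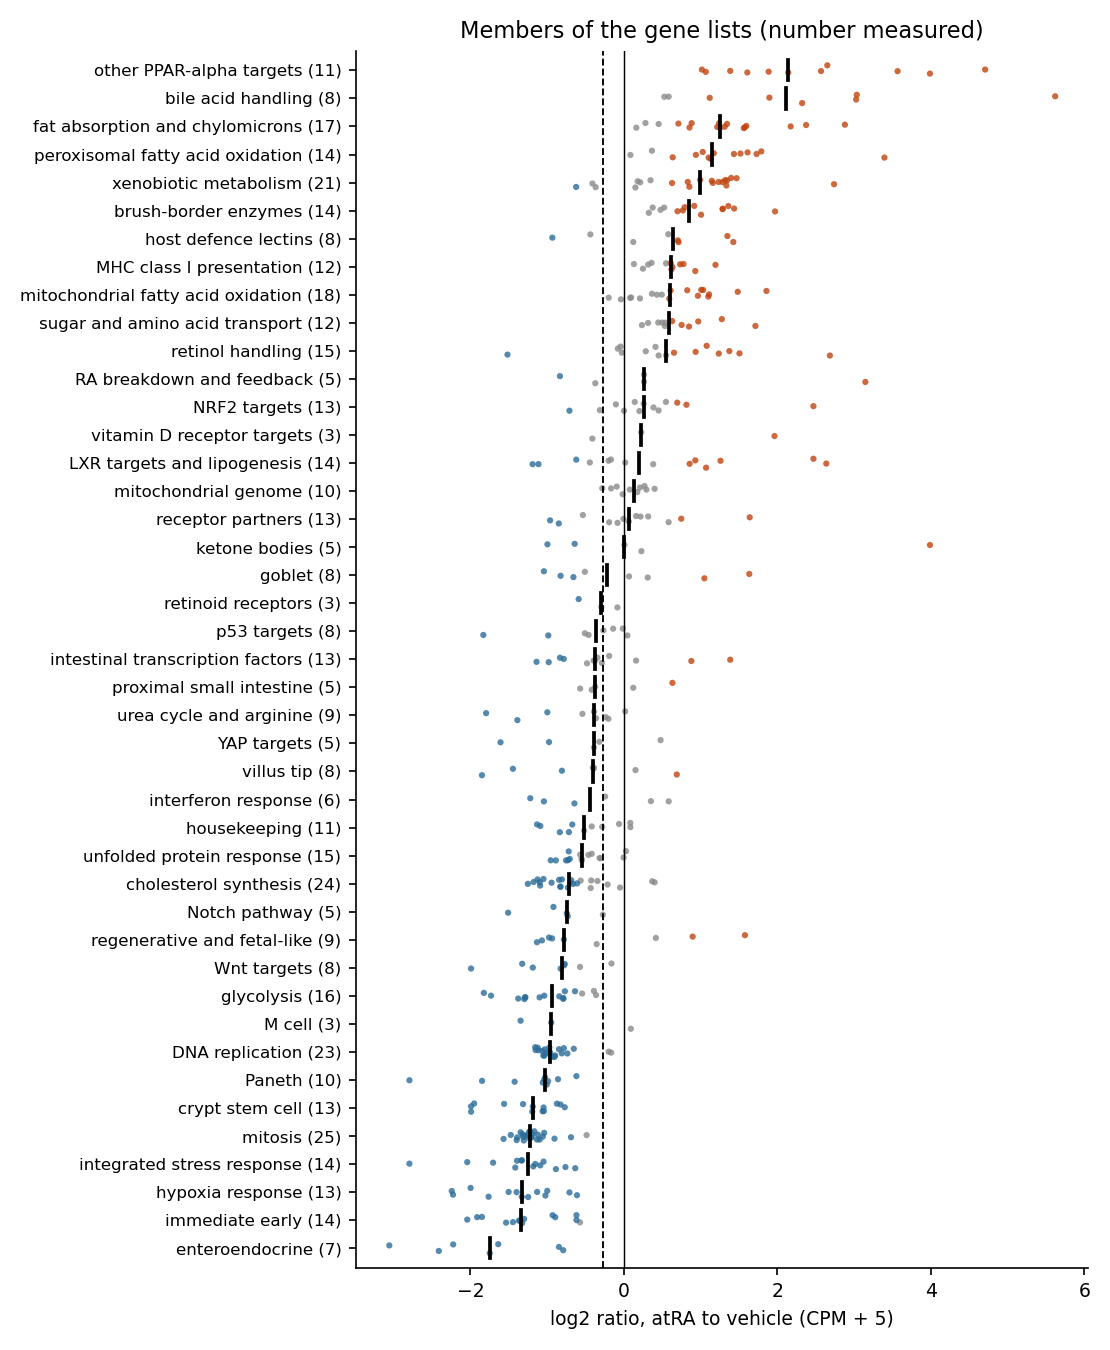
Log2 ratio of atRA to vehicle (x axis, 5 CPM added to both) for each measured member (points) of 43 gene lists, ordered by the list's median (black bar); red and blue mark members at least 1.5-fold higher or lower, the solid line is 0 and the dashed line the median of all 7973 genes, at -0.27. All 11 further PPAR-alpha targets lie right of 0, and all 13 hypoxia genes lie left of the dashed line.

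Genes of the crypt stood on the lower side, against 21.1% of all genes at least 1.5-fold lower at equal totals and 8.73% with centred ratios. All 13 measured stem cell genes (19 listed) were at least 1.5-fold lower, with a median of -1.19: Lgr5, the receptor for R-spondin, was at 5.51 CPM with atRA and 36.8 CPM with vehicle (6.67-fold lower), Olfm4 at 66.5 and 279 CPM, and Smoc2 at 50.8 and 211 CPM. The order of Olfm4 over the libraries was vitamin A-free (547 CPM), vehicle, atRA, then day 1 (1.40 and 1.94 CPM) and the RXR inhibitor (0.750 CPM). Mitosis genes were lower in 24 of 25 (median -1.22) and DNA replication genes in 21 of 23 (median -0.96), Ube2c, which drives exit from mitosis, being 3.06-fold lower at 101 and 310 CPM. Wnt targets were lower in 6 of 8 measured members, with Myc at 8.40 and 28.6 CPM and Axin2 at 9.24 and 27.4 CPM. Notch genes were lower in 4 of 5, with Hes1 at 26.2 and 83.9 CPM. With centred ratios 3 of the 8 Wnt targets and 2 of the 5 Notch genes were lower. Lgr5, Myc, Axin2, Notch1 and Dll1 reached 10 CPM only with vehicle and so could only be lower. Summed over all listed members, atRA and vehicle had 304 and 1004 CPM of stem cell genes. The sums were 111 and 225 CPM for Wnt targets and 153 and 266 CPM for Notch genes.

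The secretory lineages differed. Over all genes 21.1% were at least 1.5-fold lower and 6.00% higher at equal totals. All 7 measured enteroendocrine genes (17 listed) were lower, with a median of -1.75: the hormone genes Cck (7.90 and 102 CPM), Ghrl (7.74 and 54.5 CPM) and Gip (0.109 and 22.2 CPM, from 7 and 1167 UMIs) led. Cck, Ghrl and Gip reached 10 CPM only with vehicle and so could only be lower. Summed over all 17 listed genes, levels were 101 CPM with atRA and 459 CPM with vehicle. These sums rested on few cells. At an equal depth of 4000 UMIs per cell, 31 of 5144 cells with atRA (0.603%, exact binomial 95% interval 0.410 to 0.854) and 87 of 4524 with vehicle (1.92%, 1.54 to 2.37) held at least 3 UMIs of the list, and without thinning Gip UMIs were in 0.0373% and 0.146% of all cells. Paneth cell genes were lower in 10 of 10 (median -1.03), led besides Nupr1 by the alpha-defensin Defa24 (134 and 495.5 CPM), a family of near copies between which reads may be split. Goblet genes were split: Clca1, a secreted mucus protein, was 3.81-fold higher and Zg16, a lectin of mucus, 2.13-fold higher, but Spink4 was 2.09-fold lower, and Muc2, the main mucin, was at 17.34 and 13.02 CPM. The list's median was -0.22 at equal totals and turned to 0.05 with centred ratios. Tuft cell genes did not reach 10 CPM in either library (0.203 and 5.19 CPM summed over the list).

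Hypoxia genes and most glycolysis genes were lower. These are the genes that the factor HIF switches on when oxygen is low, among them the glucose importer Slc2a1, the lactate exporter Slc16a3 and the oxygen sensor Egln3. All 13 measured hypoxia genes (14 listed) were at least 1.5-fold lower, with log2 ratios from -2.24 to -0.61 and a median of -1.33. Egln3 was at 32.7 CPM with atRA and 173 CPM with vehicle, 5.30-fold lower (5.06 to 5.56), Ankrd37 at 38.2 and 168 CPM, and Ddit4, an inhibitor of the growth kinase mTORC1, at 10.8 and 68.8 CPM. Of 16 measured glycolysis genes 13 were lower and 0 higher (median -0.94), and 8 were lower with centred ratios (median -0.67), against 21.1% and 8.73% of all genes: Slc2a1 was 4.20-fold lower (19.3 and 81.2 CPM), Slc16a3 3.59-fold (43.6 and 156 CPM) and Pfkl, the liver form of phosphofructokinase, 2.67-fold (108 and 289 CPM). Ldha and Gapdh were nearest to level, with log2 ratios of -0.39 and -0.36.

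The levels with atRA lay toward those of day 1 for some of these genes. Egln3 had 20.5 and 24.2 CPM in the day 1 libraries, 161 CPM in vitamin A-free medium and 449 CPM with the RXR inhibitor, and Ankrd37 9.71 and 12.3, 148 and 197 CPM in the same order. Slc2a1 with atRA was below both day 1 libraries (36.4 and 43.9 CPM). Over all 424 lower genes, the atRA level was nearer to the mean of the day 1 libraries than the vehicle level was in 110 (25.9%), and over the 222 higher genes in 14 (6.31%).

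**Figure D3:**
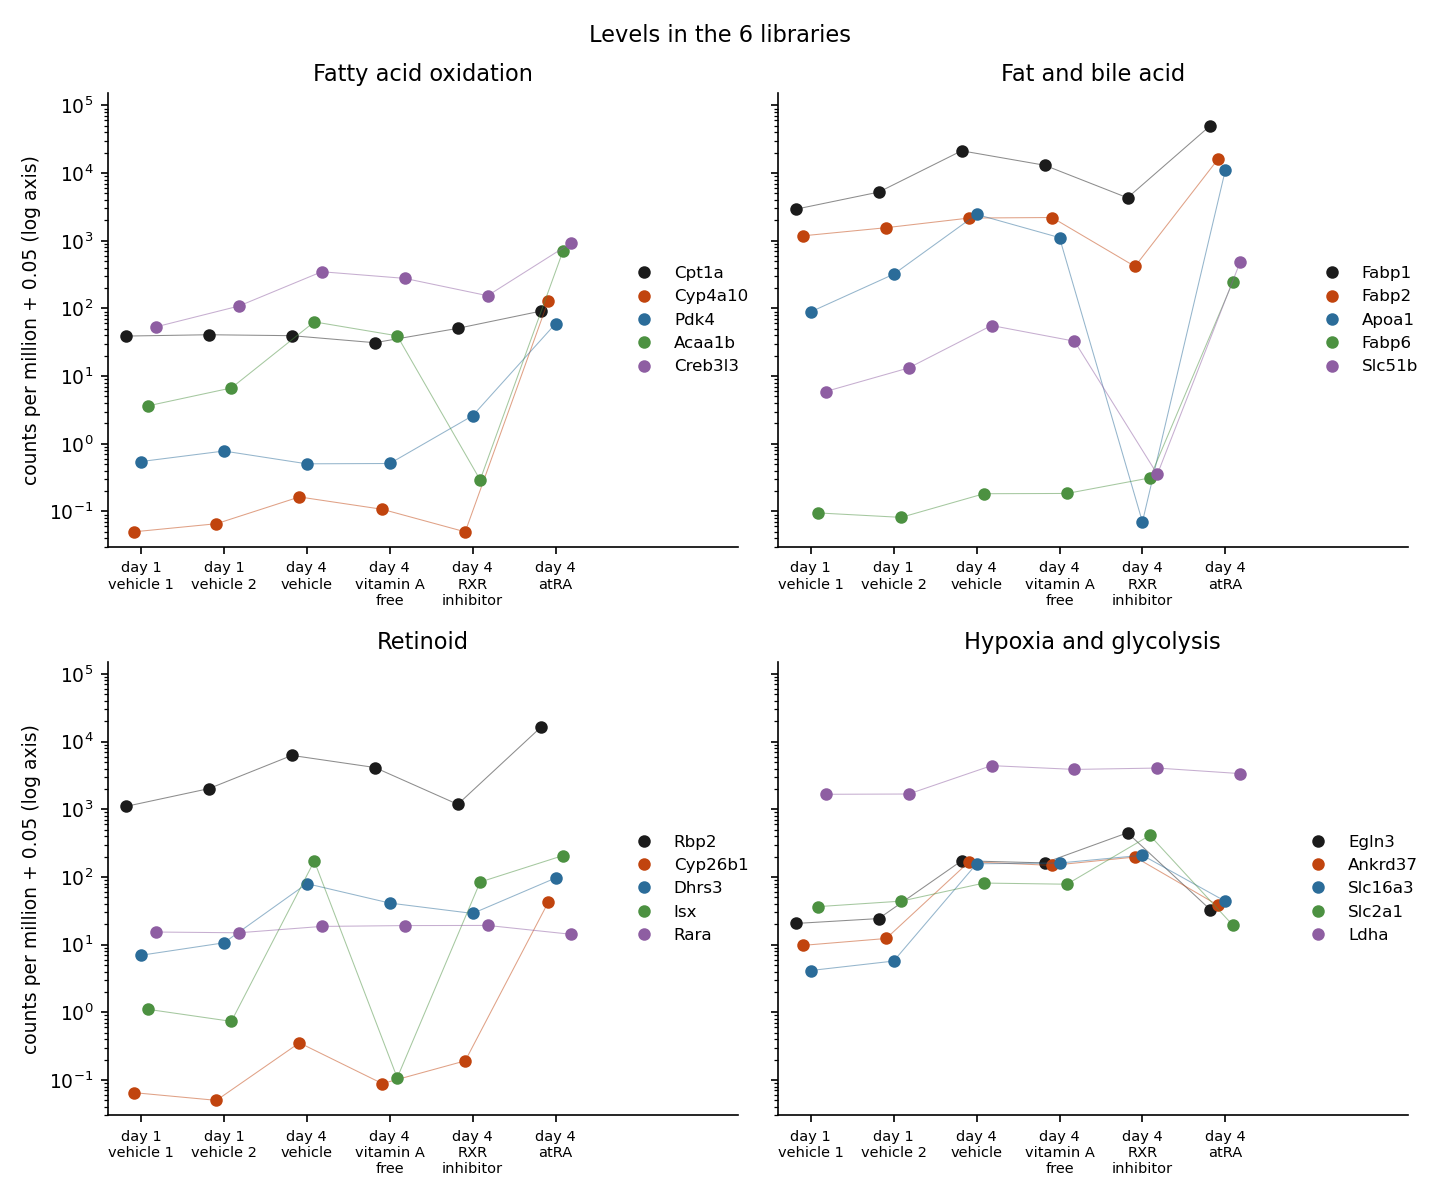
Levels of 20 genes in the 6 libraries, in CPM plus 0.05 on a log axis; points are libraries, the thin lines only join the points of a gene, and points are set slightly apart sideways. The atRA library is highest for Cyp4a10, Pdk4, Fabp6, Cyp26b1 and Rbp2, and Egln3 with atRA lies nearer to day 1 than to the other day 4 libraries. Ankrd37 with atRA lies between day 1 and the other day 4 libraries.

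HIF binds a core of ACGTG. This core, on either strand, lay in the promoter windows of 10 of the 11 measured hypoxia genes with a window and of 11 of 16 glycolysis genes, against 31.0% of the compared genes and 34.6% of the 2-fold lower genes with a window. The cores of Egln3 (229 bases before the start) and Slc16a3 (27 before it) are in capitals in the stretches below, chr12:54203875-54204124 on the minus strand and chr11:120948817-120949052 on the plus strand, the latter again ending before the first annotated exon.
Egln3: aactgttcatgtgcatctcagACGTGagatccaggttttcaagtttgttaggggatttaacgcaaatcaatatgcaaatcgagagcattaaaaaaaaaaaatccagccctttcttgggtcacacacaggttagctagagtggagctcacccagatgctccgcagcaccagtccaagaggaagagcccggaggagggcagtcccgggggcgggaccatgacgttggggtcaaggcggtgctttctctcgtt
Slc16a3: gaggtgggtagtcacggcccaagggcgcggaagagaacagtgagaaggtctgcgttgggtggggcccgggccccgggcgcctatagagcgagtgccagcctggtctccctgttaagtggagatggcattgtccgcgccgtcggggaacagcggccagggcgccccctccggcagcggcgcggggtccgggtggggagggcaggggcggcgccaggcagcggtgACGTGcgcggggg

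Genes of the integrated stress response, which cells switch on through the factor ATF4 when amino acids run short or protein folding fails, were lower in all 14 measured members (17 listed), with a median of -1.25. With centred ratios 12 of the 14 were lower. Over all genes 21.1% were at least 1.5-fold lower at equal totals and 8.73% with centred ratios. Nupr1, a small stress protein, was 13.8-fold lower at 4.31 and 59.6 CPM, Atf3 5.03-fold lower at 17.0 and 85.6 CPM, and Mthfd2, of mitochondrial folate metabolism, 3.76-fold lower at 22.6 and 85.0 CPM. Nupr1 is also on the Paneth list, and it reached 10 CPM only with vehicle and so could only be lower. The unfolded protein response, led by chaperones such as Pdia4 (2.03-fold lower), was lower in 6 of 15 members, and in 2 of 15 with centred ratios. Housekeeping genes were lower in 5 of 11, and in 2 of 11 centred. The centred counts of these lists, at 2 genes each, lay near the share over all genes. The composite element TGATGNAA, which ATF4 and CEBP factors bind, lay in the windows of 5 of the 13 measured stress genes with a window, against 2.58% of the compared genes. It is shown in capitals for Atf3 (chr1:191183341-191183583, minus strand) and Chac1, which degrades glutathione and was at 1.86 and 13.3 CPM (chr2:119350992-119351228, plus strand); in both it reads on the opposite strand.
Atf3: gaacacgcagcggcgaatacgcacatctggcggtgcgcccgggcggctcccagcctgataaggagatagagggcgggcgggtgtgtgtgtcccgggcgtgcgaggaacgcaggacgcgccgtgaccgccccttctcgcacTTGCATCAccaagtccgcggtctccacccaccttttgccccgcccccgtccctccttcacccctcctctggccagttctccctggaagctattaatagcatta
Chac1: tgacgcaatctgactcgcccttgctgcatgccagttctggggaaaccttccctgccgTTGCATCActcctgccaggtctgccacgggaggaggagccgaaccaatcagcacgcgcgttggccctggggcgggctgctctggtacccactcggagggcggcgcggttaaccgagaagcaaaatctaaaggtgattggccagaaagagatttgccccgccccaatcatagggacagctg

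Immediate early genes, which also respond to the handling of cells, were lower in 13 of 14 measured members (median -1.34), against 21.1% of all genes. Fos was at 179.5 CPM with atRA and 659.5 CPM with vehicle, and Fosb at 7.79 and 43.1 CPM. The part of handling in these or other ratios was not tested. Cholesterol synthesis was lower in 16 of 24 members (median -0.71), led by Idi1 (2.43-fold) and Fdft1 (2.34-fold). With ratios centred on the median gene 7 of the 24 were lower and 2 higher (median -0.44). Over all genes 8.73% were lower and 11.1% higher at that scaling. The centred medians of the stem, hypoxia and stress lists were -0.91, -1.06 and -0.98.

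Genes of the cytosolic ribosome were lower in 76 of 81 (median -0.92). Summed over all 90 genes of this family, levels were 38413 CPM with atRA and 72859 CPM with vehicle. With centred ratios 48 of the 81 were at least 1.5-fold lower, against 8.73% of all genes (11.1% were higher). The machinery of respiration differed from that of translation: of 89 nuclear genes for oxidative phosphorylation 1 was higher and 1 lower (median -0.00 at equal totals, 0.27 centred), and of 37 proteasome genes 0 were on either side (median -0.14).

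Per-cell values were read after each cell was thinned to 4000 UMIs, which kept 5144 cells with atRA and 4524 with vehicle and left out 221 and 263 shallower ones. Cells of 1 library are not replicates, so the spread over cells describes these 2 cultures only. UMIs of the fat absorption and brush-border genes had a median of 412 per 4000 with atRA and 112 with vehicle, and 81.8% of atRA cells lay above the 90th percentile of the vehicle cells. In the vehicle library the cells were spread widely, from 6 UMIs at the 10th percentile to 301 at the 90th. With atRA, 86.0% of cells passed the vehicle's 90th percentile for the further PPAR-alpha targets, with medians of 22 and 6 UMIs. On the other side, 97.3% of atRA cells lay below the vehicle median for glycolysis genes (medians 42 and 72 UMIs) and 95.2% for hypoxia genes (3 and 8). Ribosomal protein genes had medians of 132 and 293 UMIs.

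**Figure D4:**
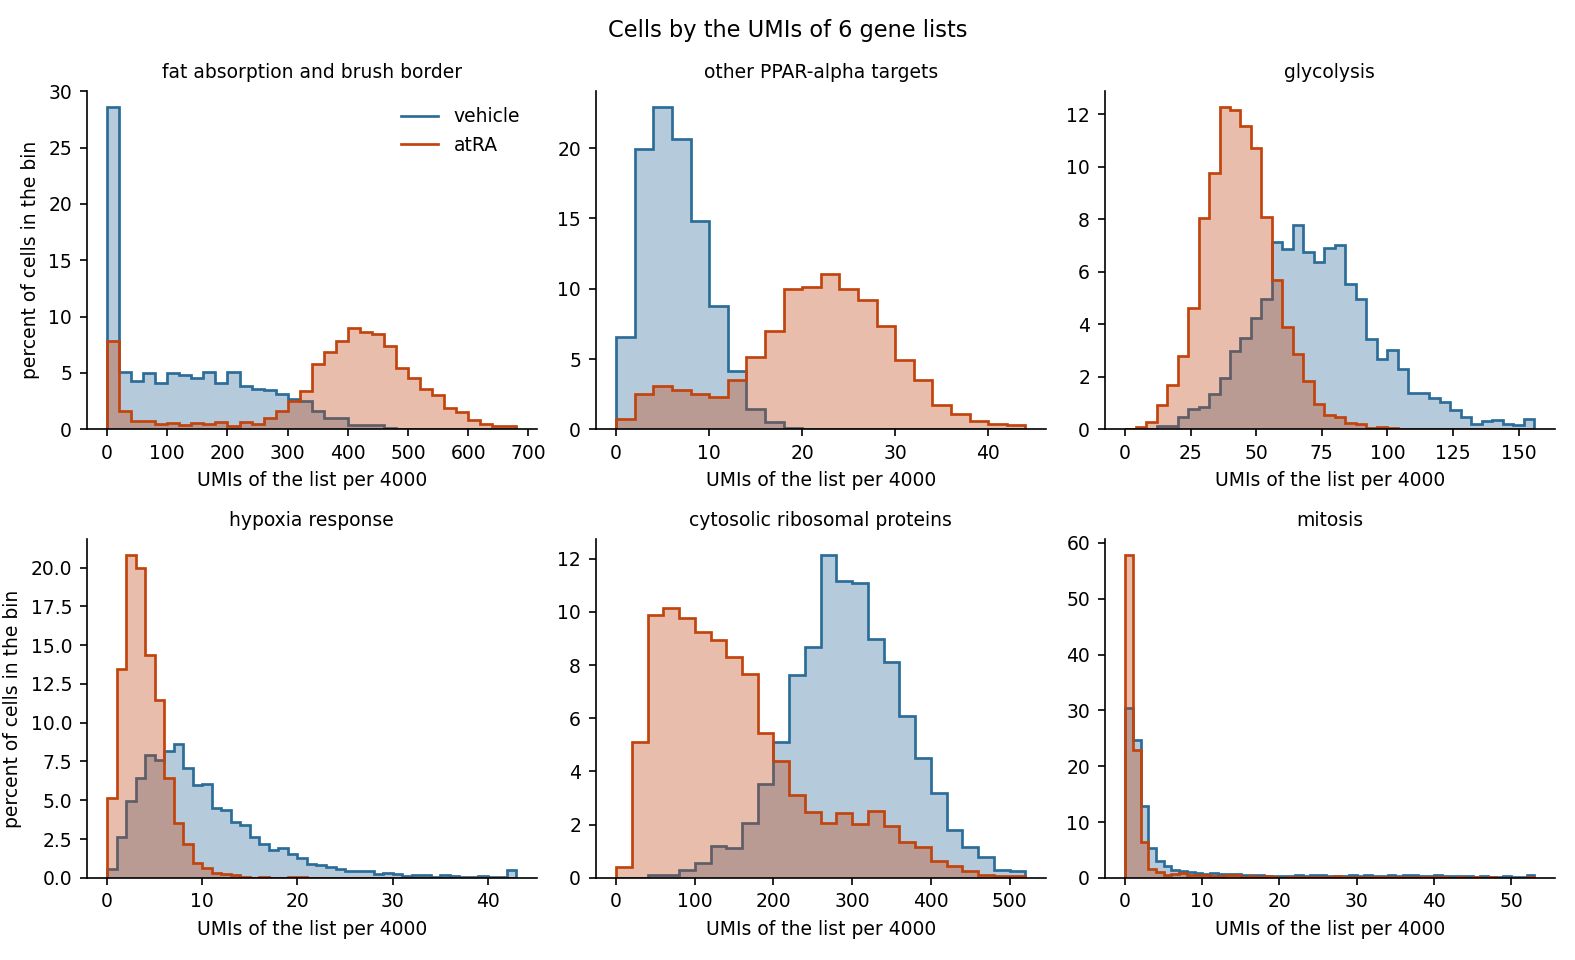
Percent of cells (y axis) by the number of UMIs of a gene list per 4000 UMIs of the cell (x axis), for 5144 atRA cells (red) and 4524 vehicle cells (blue); the last bin of each panel holds all cells beyond it. The atRA cells peak near 400 UMIs of fat absorption and brush-border genes, where few vehicle cells lie, and lie left of the vehicle cells for glycolysis, hypoxia and ribosomal protein genes.

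Single genes took different forms over the cells. Cyp4a10 was seen in 33.2% of atRA cells, in 0 of the 31 enteroendocrine-marked cells (which allows a share of up to 9.68% of cells with a UMI at this depth, and sets no limit on cells that express the gene), in 4.51% of cells with mitosis UMIs and 37.4% of the others. Fabp6 was in 9.93% of cells only, at a mean of 10.3 UMIs per cell that held it and with up to 294 in a cell. Of the 31 enteroendocrine-marked cells with atRA 3.23% held a Fabp6 UMI. So few cells set only a loose background for the share of 9.93%, and cannot tell cells that express Fabp6 from stray RNA. Cyp26b1 was likewise in 9.95% of cells, but at a mean of 1.61 UMIs per cell that held it. In vehicle cells, Fabp6 and Cyp26b1 were seen in 1 and 3 of 4524 cells. Acaa1b was in 78.3% of atRA and 18.9% of vehicle cells, against 6.45% and 3.45% of the enteroendocrine-marked cells. With 31 and 87 marked cells, these last shares are loose as well. The median depths of the marked cells before thinning were 6229 and 6082 UMIs, against 11892 and 11042 for all cells of each library that were deep enough.

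The comparison was repeated within thinned cells that held at least 3 UMIs of the mitosis list and within the remaining cells. Such cells made up 12.9% of the atRA library (665 cells, 12.02 to 13.88) and 32.1% of the vehicle library (1450 cells, 30.7 to 33.4); 407 and 823 cells had 2 or 3 such UMIs and so lay near the threshold. This class is a range of a score, not a cell type. Within it, 56 genes (0.666%) were higher with atRA by 2-fold or more and 67 (0.796%) lower, of 8413 compared (1.41% and 2.94% by at least 1.5-fold). A threshold of 2 mitosis UMIs gave 101 higher genes in place of 56. At 3 UMIs the median gene had a log2 ratio of 0.00. In the other cells 192 of 7440 (2.58%) were higher and 463 (6.22%) lower, or 5.54% and 17.5% by at least 1.5-fold.

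Some lists were far from 0 in the mitosis class too. Hypoxia genes were lower in 13 of 13 members (median -1.45) and glycolysis genes in 15 of 16 (median -1.15), against 2.94% of all genes at least 1.5-fold lower there. Slc16a3 was at 12.95 CPM with atRA and 141 CPM with vehicle in these cells. Further PPAR-alpha targets were higher in 9 of 11 (median 1.57) and bile acid genes in 4 of 7 (median 1.29), against 1.41% at least 1.5-fold higher. Here too, a gene that reached 10 CPM in 1 library only could lie only on that library's side. Cyp26b1 stood at 26.7 and 0.113 CPM. Other lists were near level: brush-border genes had a median of 0.04, nutrient carriers -0.12, DNA replication 0.11, Wnt targets 0.06 and stem cell genes -0.19, of which 2 of 15 were lower. The class was picked by genes of dividing cells in both libraries, so the replication median may partly reflect that choice. Lgr5 was 2.49-fold lower there (35.1 and 87.2 CPM) and Olfm4 1.53-fold (438 and 671 CPM), though a UMI of Olfm4 was in 37.0% of the class in both libraries. Stress response genes were lower in 6 of 15 (median -0.31), against 13 of 13 (median -1.46) in the other cells.

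Secretory genes stood on opposite sides of 0 in the classes. In cells with mitosis UMIs, goblet genes were higher with atRA in 7 of 8 members (median 1.03), against 1.41% of all genes there. Clca1 was at 99.96 and 3.22 CPM and Zg16 at 318 and 8.92 CPM. Clca1 and Zg16 reached 10 CPM in this class only with atRA and so could only be higher. Few cells held them: a UMI of Clca1 was in 3.61% of the class with atRA and 0.345% with vehicle. In the other cells, 4 of 8 goblet genes were lower and 1 higher (median -0.57), against shares over all genes of 17.5% and 5.54%. Paneth genes had medians of 0.45 (3 of 8 higher, 1 lower) and -1.70 (10 of 10 lower). Of all genes in the mitosis class, 2.94% lay on the lower side by the same 1.5-fold. Lyz1, the lysozyme of Paneth cells, was at 267 and 114 CPM in the mitosis class and at 41.0 and 160 CPM outside it. The share of cells that enter the class differs between the libraries, and its part in these differences was not tested.

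**Figure D5:**
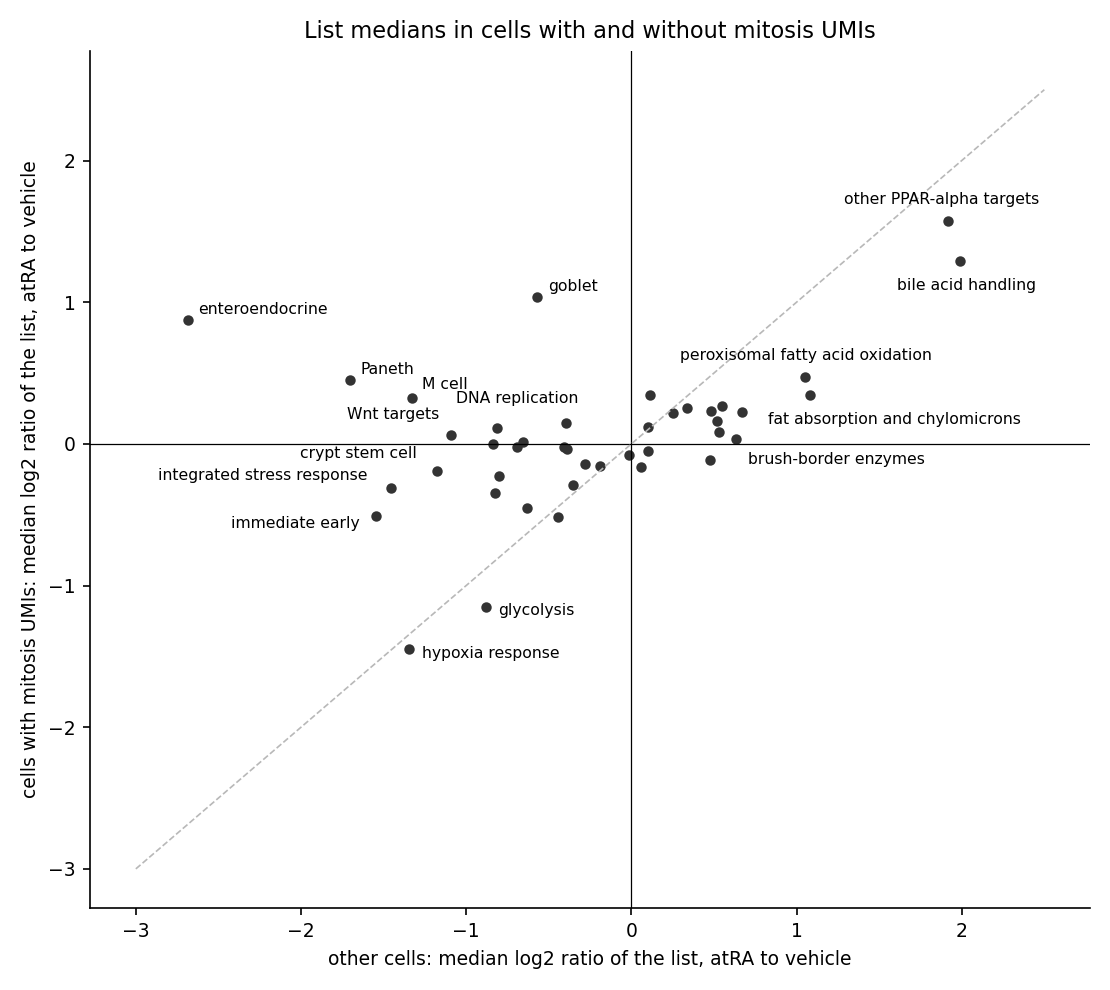
Median log2 ratio of atRA to vehicle for each gene list with at least 3 measured members in both classes, in cells with at least 3 mitosis UMIs (y axis) and in the other cells (x axis); the dashed line marks equal medians, and the mitosis list itself is left out. Further PPAR-alpha targets, glycolysis and hypoxia genes lie near the line, and enteroendocrine (3 members measured in the mitosis class), Paneth and goblet genes lie in the upper left.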

How the data were processed

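The deposited files hold raw counts of UMIs per gene and cell, used without change; the authors' steps before that are known only from the submitters' processing notes, which list bcl2fastq 2.17, Cell Ranger 3.1.0 and GRCm38. Over the 6 libraries the lowest number of genes in a barcode was 1001 and the highest mitochondrial share 9.996%, and every barcode was kept. Of 55335 gene IDs, 54587 are in GENCODE M21; a symbol with several IDs is given by the ID with most UMIs. Scrublet (in scanpy 1.11.5), by its automatic threshold, marked 2 and 6 cells as doublets, too few to have worked. Doublets were therefore kept, and 230 and 183 cells of highest score were removed only in an alternative.

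UMIs were summed per library and scaled to CPM. Log2 ratios were taken after adding 5 CPM, for genes with at least 10 CPM in either library. Folds are ratios of CPM with nothing added. Genes were called at 2-fold and list members at 1.5-fold. TMM and DESeq2 factors came from edgeR 4.0.16 and DESeq2 1.42.0 in R 4.3.3, with no test. The fold and thinning steps were tested on simulated data. Alternatives were other scalings, floors, pseudocounts, equal weight per cell, doublets removed, and other depths and thresholds. The comparison and its 48 gene lists were chosen with earlier results of these data known. The named genes were the 15 highest and 15 lowest ratios without predicted genes, up to 3 members per list, the retinoid receptors the 10 most abundant genes of each library and members with a motif where a promoter is printed; other members were picked after their values were seen. Results on some genes are not reported here. Sequences are from RefSeq (GRCm38.p6).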

Additional observations from a re-analysis of the deposited data

Results flagged for a closer look

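Lists whose medians lay at least 1.25-fold from 0 in opposite directions (5 or more members in each class) in the mitosis class and the other cells were singled out, which met for 2 lists. The Paneth list had a median log2 ratio of 0.45 in cells with mitosis UMIs and -1.70 in the other cells. The goblet list had 1.03 and -0.57. Its members Clca1 and Zg16 reached 10 CPM in the mitosis class only with atRA and so could only be higher there. The difference between the classes was not tested, as each side is 1 library.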

How the results depend on the processing

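No paired analysis was possible because each side has 1 library. The counts of 222 higher and 424 lower genes moved by over 1.5 times with the scaling: 435 and 111 with TMM, 424 and 122 with DESeq2 factors, and 359 and 149 centred on the median gene. A floor of 50 CPM gave 229 lower genes and a pseudocount of 1 CPM gave 730. Leaving the most abundant genes out of the totals gave 288 and 343; equal weight per cell, removal of likely doublets, thinning and no floor moved both counts less. In the mitosis class, a threshold of 2 UMIs gave 101 higher genes in place of 56. Of 23 lists with a median at least 1.5-fold from 0, 22 kept their sign under every alternative; the regenerative list (-0.78) came to 0.0044 with no floor. In the mitosis class the enteroendocrine list, with 3 members, turned from 0.88 to -0.33 at 2 UMIs. None of the 146 named genes that was at least 2-fold apart changed sign. The order of the 2 libraries in the share of cells with a UMI was the same at every depth for 145 of 154 genes. The precision of levels under 1 CPM is limited by counts, as for the 7 UMIs of Fabp6 with vehicle.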

Other observations

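Some genes higher with atRA than with vehicle were higher still in other libraries. Tm4sf4, a membrane protein of the tetraspanin-like group, was at 983 CPM with atRA and 96.6 CPM with vehicle, but at 2014 CPM with the RXR inhibitor and 671 and 1038 CPM at day 1. Akr1b8, an aldo-keto reductase and near copy of Akr1b7, was at 420 and 45.0 CPM, and at 1031 CPM with the inhibitor. Lgals3, a galectin that is high in regenerating epithelium, was at 156 and 48.8 CPM, and at 2877 CPM with the inhibitor and 918 and 1223 CPM at day 1. Of its list of regenerative and fetal-like genes, 2 of 9 measured members were higher and 5 lower, against 6.00% and 21.1% of all genes. The sums over the list were 507 and 500.4 CPM. Krt7 and S100a6 were 2.28-fold and 2.32-fold lower with atRA.

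Genes of antigen presentation by MHC class I were higher in 7 of 12 measured members and lower in 0 (median 0.62), against 6.00% of all genes on the higher side. H2-K1 was at 1348 and 705 CPM and H2-Q2, one of a family of near copies, at 408 and 175.5 CPM. Host defence lectins were higher in 4 of 8 and lower in 1, against shares over all genes of 6.00% and 21.1%. Reg3b was 2.87-fold and Reg3a 2.60-fold higher, and Reg4 2.49-fold lower. In the urea cycle list, Ass1, which makes argininosuccinate, was 15.8-fold lower at 0.999 and 15.8 CPM, and Oat, which turns ornithine toward proline, 2.63-fold lower at 534.5 and 1406 CPM.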
